A study of Mus musculus with 6 samples.

Results

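The nuclear genes of the respiratory chain and ATP synthase were compared between immature B lineage cells of the gut and of the bone marrow. They were taken by symbol: those that begin with Nduf, Uqcr, Cox4 to Cox8 or Atp5, and Sdha to Sdhd. Where several probe sets existed for a gene, the probe set with the highest mean over the 6 arrays stood for it. The choice left 89 genes of 19938 that had a probe set with 1 symbol. By symbol, complex I held 43 of them, with its assembly factors and Ndufa4 included. Complex II held 4, complex III 8, complex IV 17 and complex V, the ATP synthase, 17. The study measured RNA of RAG2-GFP+ B lineage cells, from the lamina propria of the small intestine and from bone marrow, on 3 arrays per tissue. All mice were of the strain RAG2-GFP/129Sve, carried the green fluorescent reporter of Rag2, were housed under SPF conditions and were at post-natal day 17 to 25. Each experiment drew on 8 to 12 mice, so an array shows a pool of animals and not a single mouse. From 4.5 to 47 ng of RNA were amplified before labelling, and the sources used here do not give the amount behind each array. The question was how the expression profile of the gut cells differs from that of their marrow counterparts.

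The respiratory chain sits in the inner mitochondrial membrane. Complexes I and II pass electrons from NADH and succinate to ubiquinone, complex III passes them on to cytochrome c, and complex IV, cytochrome c oxidase, hands them to oxygen. Complexes I, III and IV pump protons, and the ATP synthase makes ATP as the protons flow back. A few central subunits are encoded by mitochondrial DNA and all the others by nuclear genes, so the nuclear transcripts must be made together with the mitochondrial ones for a complex to be built. Dividing pro-B and pre-B cells are known to use this pathway beside glycolysis. In bulk RNA, fewer cells that express a gene and less of its RNA per cell cannot be told apart.

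Promoter sequences of the genes are shown because several regulators of mitochondrial genes have well known recognition letters. RefSeq promoter windows on GRCm38.p6, 250 bases before to 50 bases after a start, were found for 73 of the 89 genes. The core of the NRF1 motif, CGCATGCG, which reads the same on both strands, stood in windows of 11 of these 73 genes (15.1%), against 2.07% of all 27025 genes with a window. The motif of the ETS factor GABP, CCGGAAG or CTTCCGG on the other strand, stood in 18 (24.7%, against 9.93%). The YY1 motif, AAGATGGCG or CGCCATCTT on the other strand, stood in 7 (9.59%, against 1.64%). In 6 of those 7 windows it began 23 to 36 bases downstream of the start, and of all windows with this motif 55.1% held it downstream of the start. At least 1 of the 3 motifs was found in 30 genes (41.1%, against 12.8%), 5 windows held more than 1 motif and no matches overlapped. The stretches below run from 20 bases before the first motif to 20 bases after the last, or to the start where that is nearer. They read 5′ to 3′ along the gene's own strand, with the motifs in capitals.
Atp5j, chr16:84835011-84835143, minus strand: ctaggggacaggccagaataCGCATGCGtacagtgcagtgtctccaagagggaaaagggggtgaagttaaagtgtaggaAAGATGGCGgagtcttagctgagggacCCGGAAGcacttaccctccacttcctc
Ndufaf4, chr4:24897951-24897998, plus strand: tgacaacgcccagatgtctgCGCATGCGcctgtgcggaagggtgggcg
Ndufaf1, chr2:119662835-119662872, minus strand: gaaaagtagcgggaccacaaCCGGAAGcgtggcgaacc
Ndufb7, chr8:83566718-83566757, plus strand: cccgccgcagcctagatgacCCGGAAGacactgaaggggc
Uqcrh, chr4:116075071-116075100, minus strand: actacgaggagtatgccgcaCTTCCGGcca
Cox6b1, chr7:30626116-30626162, minus strand: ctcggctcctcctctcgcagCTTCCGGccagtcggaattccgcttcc
The first 3 genes were lower in every lamina propria pool than in every marrow pool, and the last 3 had positive differences that shrank or turned without marrow pool 3. Only stretches with a motif before the start are shown, and the last 3 genes were picked by name. The stretches thus cannot show how often genes of either kind hold a motif. Of the 12 genes with a window whose lamina propria pools all lay below the marrow pools, 4 held a motif. A match describes letters in a window and shows no binding.

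The arrays were not alike, and this bears on every comparison. Values are log2 signals made by RMA, and a difference of 1 is a 2-fold change. Lamina propria pool 3 correlated with the marrow arrays at 0.954 to 0.966 over all genes, whereas pools 1 and 2 correlated with each other at 0.856 and with the other arrays at 0.766 to 0.832. Their interquartile ranges over all probe sets were 2.00 and 1.94, against 2.41 to 2.47 on the other 4 arrays. B lineage identity was checked with 7 markers. The surrogate light chain gene Vpreb1 read 11.67 to 11.92 on all arrays and the transcription factor gene Ebf1 10.36 to 10.98. Cd79b was low in lamina propria pool 2, at 7.22 against 9.43 to 10.18 on the other arrays, and Pax5 in pool 1, at 7.74 against 8.47 to 10.29. The summed linear level of the 7 markers, to which Vpreb1 and Igll1 contribute most, was 8091 to 8336 in lamina propria and 7075 to 10420 in marrow. Of the other cell types, enterocyte markers had higher means in lamina propria for 10 of 10 genes, T cell markers for 5 of 5, erythroid markers for 3 of 3 and stromal markers for 4 of 5. Of all genes 67.6% did so, and 76.5% at the levels of the enterocyte markers. Summed levels were 556 to 716 against 419 to 446 for enterocyte markers and 307 to 438 against 230 to 367 for T cell markers. The summed ranges of T cell, macrophage, granulocyte, erythroid, plasma cell and stromal markers overlapped between the tissues, and only those of enterocyte markers did not. RMA values have no zero, and the part of these cell types in the results was not tested.

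Most respiratory genes had lower means in lamina propria, and so did genes of like level at large. The mean over the 3 lamina propria pools was below the marrow mean for 57 of the 89 genes (64.0%), against 32.4% of all genes. Differences in these arrays varied with the level of a gene, so shares are also given for all genes at the same levels, which are the shares in bands 1 log2 unit wide averaged over the bands of the respiratory genes. At the same levels, 62.7% of all genes had a lower mean in lamina propria, close to the share of the respiratory genes. The median difference was -0.34, against 0.22 over all genes, and single genes ranged from -2.68 to 1.14. Medians by complex were -0.63 in complex I, -0.78 in complex II, -0.01 in complex III, 0.15 in complex IV and -0.34 in complex V. No difference between complexes was tested.

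**Figure D1:**
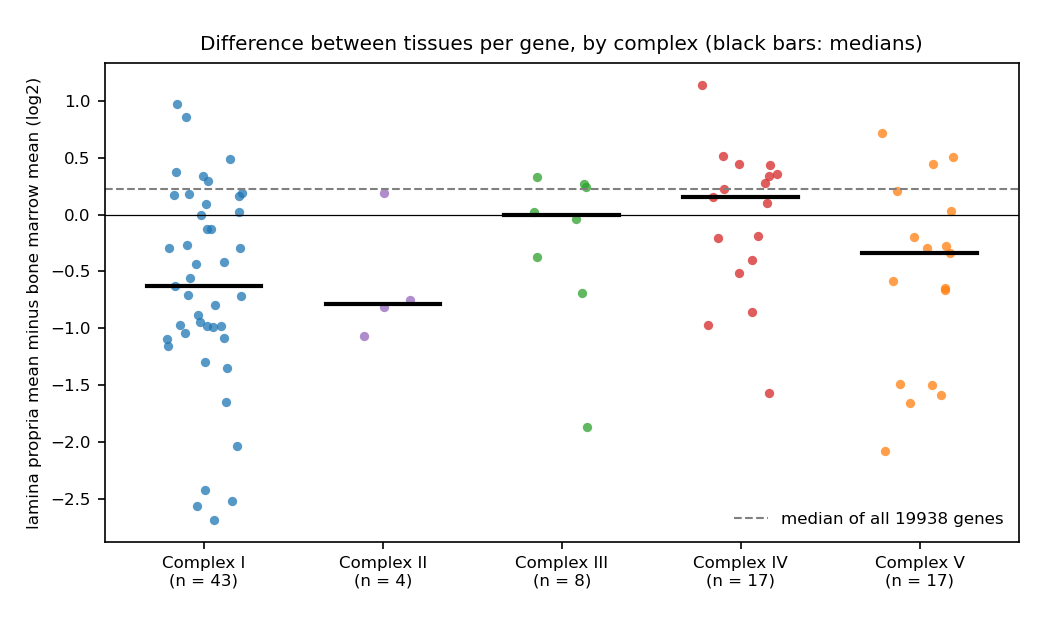
Each point is a gene, placed by its lamina propria mean minus its marrow mean (log2, 3 arrays per tissue) and by its complex, with black bars at the medians and a dashed line at the median of all genes, 0.22. Most complex I genes (31 of 43, 72.1%) lie below 0, against 62.8% of all genes at the same levels. Complex IV has 10 of 17 (58.8%) above it, against 49.15% at the same levels.

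No respiratory gene passed limma's test at an adjusted p under 0.05. Neither did any other of the 19938 genes, so the background is 0%. The lowest adjusted p among the 89 was 0.299, shared by Atp5j and Ndufa5. At an unadjusted p under 0.05, 11 of the 89 (12.4%) were lower, against 8.15% of all genes and 15.5% at the same levels, and 1 was higher (5.53% of all genes). Counted without a test, 14 of the 89 (15.7%) had every lamina propria pool below every marrow pool, against 7.27% of all genes and 13.1% at the same levels. The opposite held for 3 (3.37%), against 14.8% of all genes and 6.57% at the same levels. Both counts are thus nearer to those of genes of like level than to those of all genes. Complexes were assigned by symbol, so complex I here includes the assembly factors Ndufaf1 and Ndufaf4, and Ndufa4, which is now counted with complex IV. On that basis the 14 lower genes comprise 7 of complex I, 1 of complex II, 1 of complex III, none of complex IV and 5 of complex V. In complex V that was 29.4%, against 14.2% of all genes at the same levels, a difference of few genes that was not tested. The p-values measure the spread between pools of mice, and an exact test of 3 against 3 cannot go below 0.1.

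**Figure D2:**
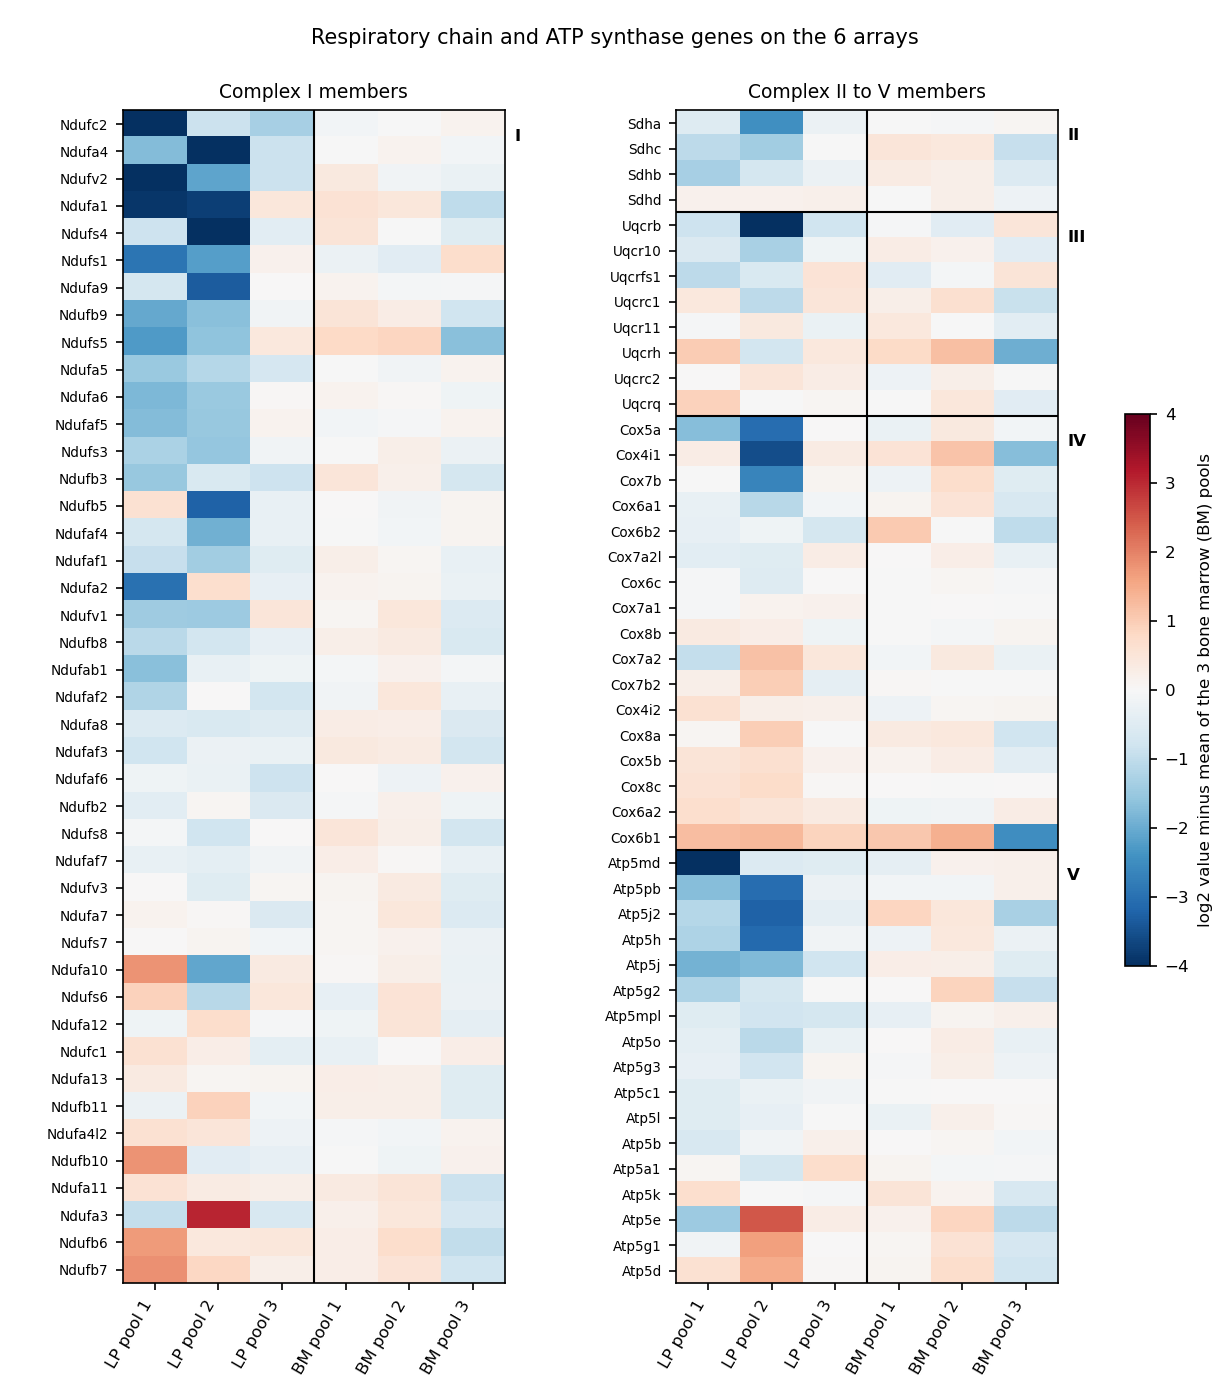
Rows are the 89 genes by complex, columns the 6 arrays, and colour is the log2 value minus the mean of the 3 marrow pools, clipped at 4 in either direction. Blue fills much of the lamina propria pool 1 and pool 2 columns of complex I, pool 3 is pale, and marrow pool 3 is blue for genes such as Cox6b1 and Uqcrh.

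The 3 lamina propria pools did not share this difference equally. Against the marrow mean, the median respiratory gene was at -0.41 in pool 1, -0.56 in pool 2 and -0.05 in pool 3. For all genes these medians were 0.31, 0.31 and -0.01. In pool 1, 48 of the 89 genes (53.9%) lay below every marrow pool, against 24.1% of all genes and 50.3% at the same levels. Above every marrow pool lay 18 (20.2%), against 59.7% and 30.7%. In pool 2, 51 (57.3%) lay below, against 25.2% and 52.3%, and 20 (22.5%) above, against 58.4% and 29.2%. In pool 3, 26 (29.2%) lay below, against 26.7% and 24.0%, and 12 (13.5%) above, against 24.8% and 25.3%. The lower shares were close to those of genes of like level in each pool. Complex I made up 17 of the 26 genes below the marrow in pool 3. That was 39.5% of its 43 genes, against 24.9% of all genes at the same levels. Above the marrow range lay 2 of the 43 (4.65%), against 25.3% at the same levels. Neither difference was tested.

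Leaving out lamina propria pool 3 brought calls, but no more than among genes of like level. Without it, limma called 16 of the 89 respiratory genes lower, against 12.1% of all genes and 26.5% at the same levels. It called 2 (2.25%) higher, against 24.1% and 9.81%. Below every marrow pool then lay 37 (41.6%), against 18.7% and 39.3%, and above lay 9 (51.2% of all genes). Weighting arrays by their scatter gave pool 3 a weight of 0.153 against 1.16 for pool 1. With these weights 21 (23.6%) were called lower, against 11.1% and 25.0%, and 2 higher, against 16.9% and 7.16%.

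The size of the differences was compared by level in the same way. Over all genes the median difference was 0.31 where the mean over the 6 arrays was 3 to 4, -0.58 at 7 to 8, -0.62 at 8 to 9 and -0.08 at 11 to 12. Many respiratory genes lay in these bands: 28 were at 7 to 8, with a median of -0.72, and 14 at 8 to 9, with a median of -1.02. Set against the median of all genes in its own band, the median respiratory gene lay at -0.11, and 51 of 89 were below their band. The corresponding medians were -0.40 for complex I, -0.20 for complex II, 0.04 for complex III, -0.03 for complex IV and 0.00 for complex V. At the median, complex I thus lay below genes of its level and complex V did not. Without its assembly factors, which are not part of the complex, the complex I median was -0.28 against the bands. Of those 36 genes, 24 (66.7%) had negative differences, against 66.2% of all genes at the same levels.

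**Figure D3:**
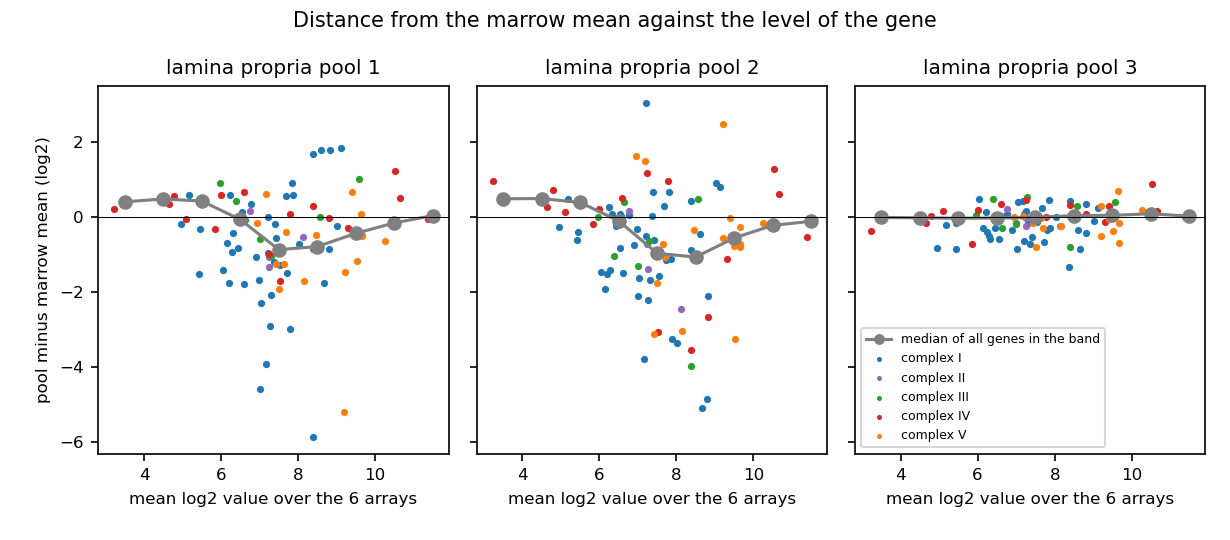
For each lamina propria pool, the log2 value minus the marrow mean is plotted against a gene's mean over the 6 arrays, with respiratory genes as coloured points and the median of all genes per band of 1 log2 unit as a grey line. The grey line dips at 7 to 9 in pools 1 and 2 and stays near 0 in pool 3.

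Complex I oxidises NADH and is the largest of the complexes. Its 6 measured core subunits all had negative differences, against 63.6% of all genes at the same levels, with a median of -0.89. Most of them carry the flavin, the iron-sulphur clusters or the ubiquinone site. Ndufv2, an iron-sulphur subunit of the NADH-binding arm, read 3.69, 6.18 and 7.42 in lamina propria and 8.67, 8.13 and 8.02 in marrow. Every lamina propria value was below every marrow value, and the difference was -2.51 (95% interval -4.48 to -0.55, limma adjusted p = 0.356, n = 3 per tissue), or -1.48 without pool 1. Ndufs1, the largest iron-sulphur subunit, read 5.18, 5.89 and 8.26 against 7.84, 7.62 and 8.80. Only pools 1 and 2 were low there, as pool 3 lay within the marrow range. Ndufs7, a subunit near the ubiquinone site, differed by -0.001, from 6.55, 6.63 and 6.43 to 6.62, 6.71 and 6.30.

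The 28 accessory subunits, which surround the core, had a median of -0.43 and 17 negative differences (60.7%, against 67.9% of all genes at the same levels). Ndufc2, in the membrane arm, read 3.87, 8.86 and 8.40 in lamina propria and 9.60, 9.71 and 9.85 in marrow. It had the most negative mean difference of the 89 genes, -2.68 (interval -5.46 to 0.10), but it came out at -1.09 without pool 1. Ndufa5 read 6.78, 7.13 and 7.60 against 8.26, 8.13 and 8.41. Its pools lay close together within each tissue, with SDs of 0.42 and 0.14, and the 2.13-fold lower mean in lamina propria (-1.09, interval -1.70 to -0.49) had an adjusted p of 0.299 by limma. Ndufab1, the mitochondrial acyl carrier protein that is part of complex I, read 5.67, 7.03 and 7.18 against 7.26, 7.50 and 7.25, so 2 of its lamina propria pools sat just under the marrow range.

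Other accessory subunits had means in the opposite direction. Ndufb7 read 10.48, 9.45 and 8.88 in lamina propria and 8.90, 9.18 and 7.84 in marrow, a difference of 0.97 (interval -0.18 to 2.12). Ndufb6 read 9.66, 8.39 and 8.41 against 8.24, 8.66 and 6.99, a difference of 0.85. Both belong to the membrane arm, and in both marrow pool 3 was the lowest of the 6 values. Without that pool the differences were 0.57 and 0.37, and without lamina propria pool 1 they were 0.53 and 0.44.

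Complex I assembly factors help build the complex and are not part of it. All 7 had lower means in lamina propria, against 45.3% of all genes at the same levels, with a median of -0.63. In lamina propria pool 3, 4 of them (57.1%) lay below every marrow pool, against 26.7% of all genes and 26.9% at the same levels. Ndufaf1 read 5.82, 5.35 and 6.26 against 6.99, 6.82 and 6.44, a difference of -0.94 (interval -1.62 to -0.27, limma adjusted p = 0.353). Ndufaf4 read 5.94, 4.72 and 6.34 against 6.63, 6.51 and 6.75. For both genes the tissues did not overlap, although pool 3 came close to the lowest marrow value. Among the 12 assembly genes of complexes I, II, III and V that the symbols did not take in, 11 (91.7%) had negative differences, against 35.2% of all genes at the same levels, with a median of -0.17. Below every marrow pool lay 3 (25.0%), against 8.60% at the same levels. Of the 3 with the highest level, Tmem126b differed by -1.62, Sdhaf2 by -1.38 and Ttc19 by -0.14.

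Ndufa4 was first assigned to complex I and is now counted with complex IV, and Ndufa4l2 is its hypoxia-responsive paralogue. Ndufa4 read 8.21, 4.86 and 9.10 in lamina propria and 9.94, 10.08 and 9.83 in marrow, with no overlap and a difference of -2.56 (interval -4.83 to -0.29), which was -1.29 without pool 2. Ndufa4l2 had a difference of the opposite sign, 0.30, with 5.64, 5.53 and 4.82 against 4.98, 4.94 and 5.18. Its pools 1 and 2 were above the marrow and pool 3 below it.

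Complex II, succinate dehydrogenase, is also an enzyme of the citrate cycle. Sdha, its flavoprotein, read 8.15, 6.21 and 8.43 in lamina propria and 8.65, 8.61 and 8.73 in marrow, a difference of -1.06 with no overlap, or -0.37 without pool 2. Sdhb, the iron-sulphur subunit, differed by -0.75, with 6.29, 6.91 and 7.40 against 7.95, 7.84 and 7.07. Sdhc, a membrane anchor, differed by -0.81, with 6.62, 6.28 and 7.66 against 8.16, 8.09 and 6.75. In Sdhb and Sdhc marrow pool 3 was lower than lamina propria pool 3, so the tissues overlapped. The other anchor, Sdhd, read 6.85, 6.83 and 6.89 against 6.64, 6.89 and 6.47, a difference of 0.18 (interval -0.29 to 0.66).

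In complex III, 4 differences were negative and 4 positive. Uqcrb, which lies near the ubiquinone site, read 8.49, 5.35 and 8.54 in lamina propria and 9.29, 8.86 and 9.82 in marrow. It was the only complex III gene without overlap, with a difference of -1.86 (interval -3.79 to 0.06), and its 3 probe sets ranged from -1.94 to -1.75. Without pool 2 the difference was -0.81. Uqcr10, a small subunit, differed by -0.69, and Uqcrfs1, the Rieske iron-sulphur protein, by -0.37. Uqcrq (0.33) and Uqcrc2, a core protein (0.27), had the most positive differences. Uqcrh, the hinge protein, read 10.48, 8.73 and 9.87 against 10.21, 10.66 and 7.49. Its difference of 0.24 came out at -0.74 without marrow pool 3.

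Complex IV reduces oxygen, and its nuclear subunits come in common and in tissue or stage forms. The 9 common subunits had a median of -0.19 and none was free of overlap. Cox5a read 6.61, 5.26 and 8.34 in lamina propria and 8.05, 8.69 and 8.18 in marrow, a difference of -1.57 (interval -3.20 to 0.06), or -0.83 without pool 2. Cox4i1, the regulatory subunit, read 9.16, 5.32 and 9.21 against 9.42, 10.02 and 7.17, and Cox7b read 9.23, 6.59 and 9.34 against 9.03, 9.95 and 8.75. In both, lamina propria pool 2 alone was far below the other lamina propria pools, and without it the differences were 0.32 and 0.045. Cox6c read 11.42, 10.94 and 11.49 against 11.44, 11.54 and 11.43, a difference of -0.19. Cox6b1, which bridges the dimer, had the most positive difference of the 89 genes, 1.14 (interval -1.05 to 3.33). Its values were 11.20, 11.26 and 10.84 in lamina propria and 11.02, 11.37 and 7.49 in marrow, and without marrow pool 3 the difference was -0.10.

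The 7 tissue or stage isoforms of complex IV had a median of 0.28, with 6 positive differences (85.7%, against 78.5% of all genes at the same levels). The 3 respiratory genes with every lamina propria pool above every marrow pool were all among them. That was 42.9% of the 7, against 14.8% of all genes and 18.04% at the same levels, a difference of few genes that was not tested. Cox6a2, the heart and muscle form of subunit 6A, read 7.02, 6.86 and 6.70 against 6.18, 6.21 and 6.64, a difference of 0.52 (interval 0.0004 to 1.03, limma adjusted p = 0.356). Cox4i2, the form of subunit 4 known from lung, read 6.42, 6.05 and 6.03 against 5.64, 5.90 and 5.94. Cox8c, a testis form, read 5.14, 5.30 and 4.61 against 4.59, 4.54 and 4.57. Relative to the all-gene median in its own band, Cox6a2 differed by 0.54, Cox4i2 by 0.05 and Cox8c by 0.11. Their common counterparts had differences of -0.51 for Cox6a1, -0.97 for Cox4i1 and 0.36 for Cox8a. Among the other isoforms, Cox8b differed by 0.15, Cox7a1 by 0.10 and Cox6b2 by -0.40. Cox7a2, the common form of subunit 7A, differed by 0.23, and Cox7a2l, which helps to join complexes III and IV, by -0.20.

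Of the ATP synthase genes, 12 (70.6%) had negative differences, against 72.4% of all genes at the same levels, and 5 positive ones. Atp5a1, the alpha subunit of the catalytic head, read 9.72, 8.93 and 10.34 against 9.75, 9.57 and 9.58. Its difference of 0.03 averages a pool below and a pool above the marrow range. Atp5b, the beta subunit, read 9.73, 10.21 and 10.55 against 10.37, 10.44 and 10.26, a difference of -0.20, also with pools on both sides of the marrow. Atp5c1, the gamma subunit of the rotor stalk, read 9.32, 9.56 and 9.67 against 9.80, 9.81 and 9.82, a small difference of -0.29 without overlap. Atp5d, the delta subunit of the same stalk, had a positive difference of 0.72, with 7.44, 8.31 and 6.86 against 6.94, 7.51 and 6.01, or 0.33 without pool 2 and 0.31 without marrow pool 3.

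The peripheral stalk holds the head still, and its 4 measured genes had differences from -1.66 to -0.58. Atp5j, coupling factor 6, read 6.36, 6.49 and 7.45 in lamina propria and 8.51, 8.49 and 7.76 in marrow. The mean was 2.80-fold lower in lamina propria (-1.49, interval -2.33 to -0.64, limma adjusted p = 0.299), and no values overlapped. Atp5pb, subunit b, read 7.29, 5.94 and 8.74 against 8.88, 8.86 and 9.19, a difference of -1.66 (interval -3.12 to -0.19), or -0.97 without pool 2. A further probe set of Atp5pb gave -0.34, so its size depends on the probe set. Atp5h, subunit d, differed by -1.50, with values of 6.94, 5.06 and 8.03 against 7.98, 8.61 and 7.94, and pool 3 lay within the marrow range. Atp5o, which joins the stalk to the head, differed by -0.58, with 7.59, 6.92 and 7.70 against 7.99, 8.28 and 7.68.

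The membrane part and the small associated proteins were uneven between pools and genes. Atp5md, a small protein of the synthase dimer, read 5.06, 9.68 and 9.75 against 9.87, 10.40 and 10.45, and its difference of -2.08 came out at -0.52 without pool 1. Atp5mpl, another small associated protein, read 9.52, 9.21 and 9.29 against 9.65, 10.10 and 10.20, a difference of -0.65 with no overlap. Atp5j2, subunit f, read 9.16, 7.08 and 9.95 against 11.16, 10.75 and 9.03, a difference of -1.58, or -0.76 without pool 2. Atp5g1, Atp5g2 and Atp5g3 encode the same mature ring subunit c, and their differences were 0.51, -0.66 and -0.34. None of these 3 separated the tissues.

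**Figure D4:**
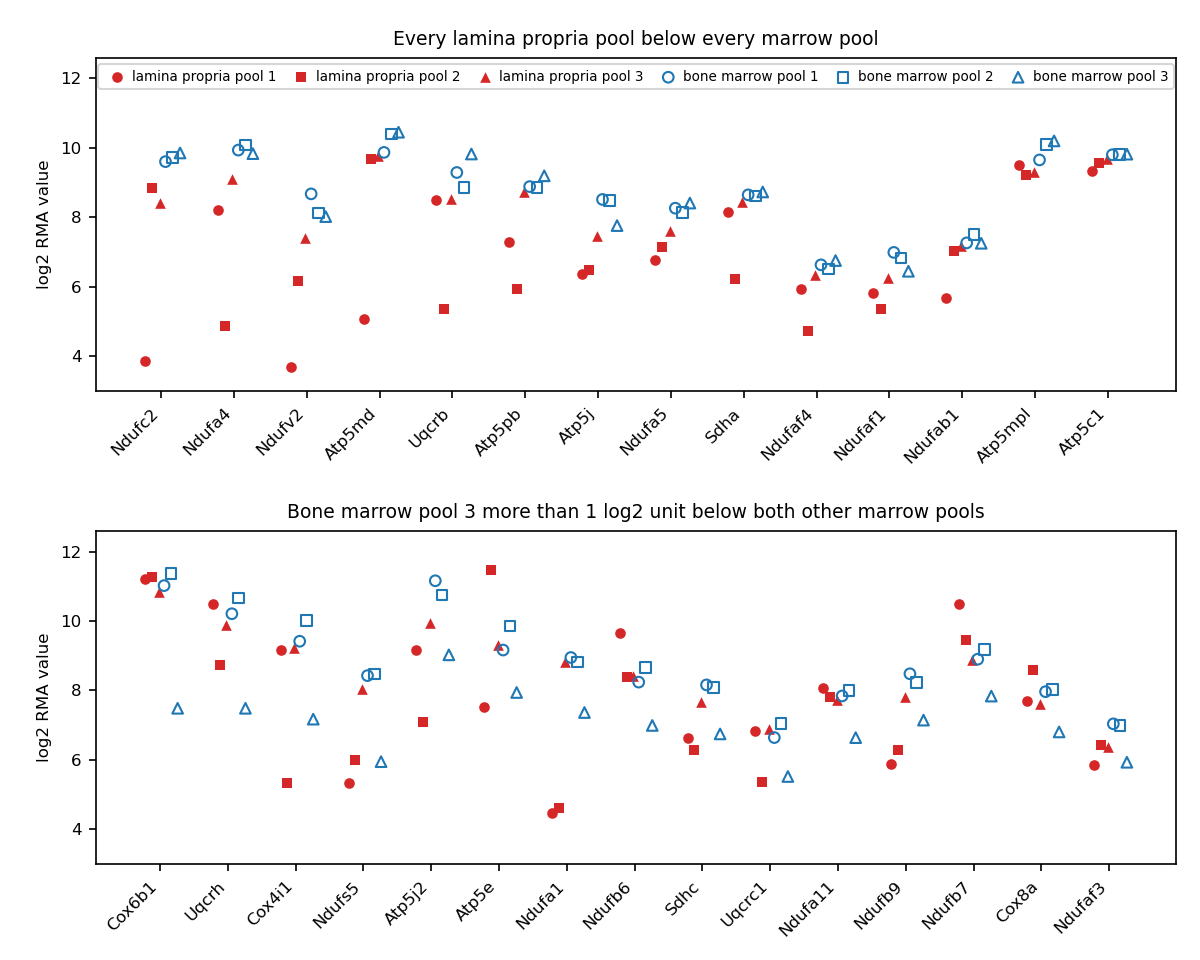
Log2 values on each of the 6 arrays, filled red for lamina propria and open blue for marrow, for the 14 genes with every lamina propria pool below every marrow pool (top) and the 15 genes with marrow pool 3 more than 1 below both other marrow pools (bottom). Lamina propria pools 1 and 2 scatter widely in the top panel, and the open triangles of marrow pool 3 sit low in the bottom one.

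Lamina propria pools 1 and 2 often disagreed with each other on respiratory genes. They lay more than 2 apart for 18 of the 89 genes (20.2%), against 3% of all genes and 10.7% at the same levels. At a mean level of 8 to 9, the shares were 64.3% of 14 respiratory genes and 22.6% of all genes. At 7 to 8 they were 21.4% and 12.1%. Pool 1 was the higher in 11 of the 18 and pool 2 in 7, so neither pool was low throughout. Ndufs4, an accessory subunit of complex I, read 8.99 in pool 1 and 4.98 in pool 2, and Ndufa10 read 10.61 and 6.72. Ndufa3 went the other way, with 6.02 and 10.02, as did Atp5e, the epsilon subunit of the synthase, with 7.53 and 11.47. In all 4 genes pool 3 was within 1 of the marrow mean. No respiratory gene differed by more than 2 between lamina propria pool 3 and marrow pool 1, or between marrow pools 1 and 2. This was also rare over all 19938 genes, with 109 and 22. Between marrow pools 1 and 3, 6 respiratory genes did (105 of all genes), and between marrow pools 2 and 3, 4 did (94 of all genes).

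**Figure D5:**
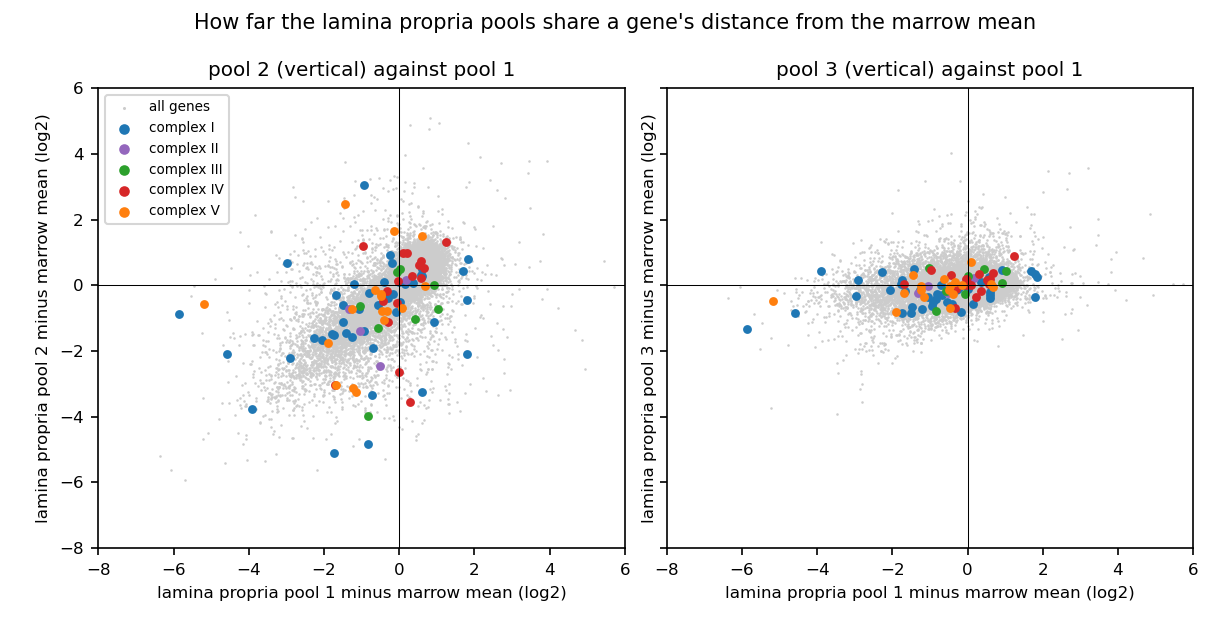
Each point is a gene, with its distance from the marrow mean (log2) in lamina propria pool 1 on the horizontal axis and in pool 2 (left) or pool 3 (right) on the vertical axis, all genes in grey and respiratory genes coloured by complex. Respiratory genes are scattered into all quadrants on the left and lie near the horizontal line on the right.

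Marrow pool 3 stood apart from the other marrow pools in these genes. It was more than 1 below both of them for 15 of the 89 genes (16.9%), against 1.37% of all genes and 3.95% at the same levels. It was more than 1 above both for none of the 89. Among all 19938 genes this was rare as well, with 322. Its median distance from the mean of pools 1 and 2 was -0.42 over respiratory genes and -0.02 over all genes. Ndufs5, an accessory subunit of complex I, read 8.43, 8.48 and 5.95 in the 3 marrow pools. Ndufa1, which is needed to assemble complex I, read 8.95, 8.82 and 7.36. Without marrow pool 3, 36 of the 89 genes (40.4%) lay below both remaining marrow pools in every lamina propria pool, against 11.4% of all genes and 20.1% at the same levels, and 3 lay above (20.2% of all genes). Of the 7 B lineage markers, marrow pool 3 was the lowest marrow pool in 5, and in 3 of these, Cd79a, Igll1 and Pax5, it was more than 1 below both others. Vpreb1 and Ms4a1 were not low there. The part of these levels in the result was not tested.

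The 18 genes called by limma without lamina propria pool 3 were compared with their values in that pool. Ndufa1 read 4.47 and 4.60 in pools 1 and 2, a difference of -3.84 from marrow (interval -5.11 to -2.57). In pool 3 it read 8.82, within the marrow range. Ndufaf5 and Ndufa6 had the narrowest intervals after Ndufa4l2 and Cox8c, with differences of -1.63 and -1.64, and both were within the marrow range in pool 3. Of the 16 genes called lower, 7 had no overlap over all arrays, and 8 were inside the marrow range in pool 3. The remaining gene, Ndufv1, the flavin subunit of complex I, was above the marrow range there, with 5.02, 4.98 and 6.92 against 6.51, 6.90 and 5.90. The 2 genes called higher were Ndufa4l2 (0.55) and Cox8c (0.65).

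Genes that feed or serve the chain were counted from fixed lists, and limma called none of them. In the citrate cycle, which supplies NADH and succinate, 10 of 14 measured genes (71.4%) had negative differences, with a median of -0.73, and 67.3% of all genes at the same levels did. Pools 1 and 2 were at -1.17 and -1.81 and pool 3 at 0.21. Of its 3 genes of highest level, Mdh2 differed by -0.22, Idh3g by -0.79 and Idh3b by 0.09. Electron carriers and other entry points to ubiquinone had 5 of 7 negative (61.5% of all genes at the same levels), with a median of -0.42. Cycs, cytochrome c, read 5.28, 8.00 and 8.89 in lamina propria and 8.68, 8.79 and 8.26 in marrow. Etfa and Etfb, which bring in electrons from fatty acid oxidation, differed by -0.61 and 0.14.

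The lists with medians near or above 0 were those for building complex IV (-0.03, 7 of 10 negative), for making ubiquinone (0.27, 3 of 8 negative) and for carriers of the inner and outer membrane (0.24, 3 of 8 negative). At the same levels 56.5%, 43.2% and 61.0% of all genes were negative. In the first, Cox17, a copper chaperone, differed by -0.92, Cox20 by 0.16 and Cox14 by -0.39. In the second, Coq5 differed by 1.05, Coq9 by 0.49 and Coq2 by 0.05. In the third, Slc25a3, the phosphate carrier, differed by 0.48, Vdac2 by -0.12 and Slc25a5, an ATP/ADP carrier, by -0.22. The 13 mitochondrially encoded subunits had no probe set with 1 symbol and were not analysed here.

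Transcription and biogenesis factors of mitochondria had negative differences in 9 of 12 genes, against 47.4% of all genes at the same levels, with a median of -0.68. Below every marrow pool lay 3 (25.0%), against 10.9% at the same levels. Pools 1 and 2 were at -0.98 and -1.10 and pool 3 at -0.07. Gabpa, the DNA-binding subunit of GABP, read 5.83, 7.32 and 8.96 in lamina propria and 9.07, 9.30 and 9.71 in marrow. Gabpb1, its partner, read 4.98, 7.11 and 7.61 against 7.65, 8.25 and 8.96. Neither overlapped, but pool 3 was just under the lowest marrow pool in both, and limma's adjusted p was 0.356 for each. Yy1 read 7.24, 7.04 and 8.40 against 7.92, 8.09 and 8.85, a difference of -0.72, with pool 3 inside the marrow range. Whether these levels bear on the genes with the corresponding motifs was not tested.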

How the data were processed

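The authors deposited log2 values for 35556 probe sets, which were RMA output of Affymetrix Expression Console, version 1.3.0.187, according to the submitters' processing notes. The sources used here do not give the settings of RMA. Values were used as deposited, with no filter. GEO's platform table named 21789 probe sets with 1 symbol, of which 21698 matched RefSeq (GRCm38.p6) with 0 symbols changed. For 17 of the 89 genes several probe sets existed, and in 1, Uqcr11, they differed in sign. Tissues were compared with limma 3.58.1 in R 4.3.3 (lmFit, eBayes, two-sided, no block), Benjamini-Hochberg adjusted over all 19938 genes, threshold 0.05. The code was tested on simulated data. The number of arrays limits the precision.

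Genes were named by rule: per complex, the highest level, the 3 most negative and 2 most positive differences, and all isoform families; per list, the 3 highest levels. Other named genes were chosen after their values were seen. Members and lists were chosen with earlier results of these data known. NRF1 was searched by its core, a shorter form than first planned. Alternatives covered scaling, dim genes, probe sets, variance model, array weights, block, threshold and left-out arrays. Shares of all genes at the same levels were added after the values were seen.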

Additional observations from a re-analysis of the deposited data

How the results depend on the processing

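Respiratory genes called numbered 0 under quantile scaling, median centring, a variance trend, averaged probe sets, a threshold of 0.01 and without dim genes, but 23 with array weights. Leaving out single arrays gave 0 to 18 calls, and 15 to 37 genes lower with no overlap. Without lamina propria pools 1 and 2, the lone pool is assumed to vary like the marrow. The medians were then -0.047 over all 89 genes, -0.16 in complex I and -0.12 in complex II. Below every marrow pool lay 26 (29.2%), against 26.7% of all genes and 24.0% at the same levels. Above every marrow pool lay 12 (13.5%), against 24.8% and 25.3%. The complex IV median of 0.15 was -0.19 without dim genes, 0.045 with quantile scaling, 0.040 with array weights and -0.040 to 0.16 leaving out single arrays. The cause was not tested.

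Signs turned without pools 1 and 2 for Uqcrfs1 (0.54), Cox6c (0.025), Cox5a (0.032), Cox4i1 (0.34), Cox7b (0.099), Atp5b (0.19), Cox7a2l (0.30), Cox8a (-0.00085), Cox8b (-0.16), Atp5g3 (0.10) and Ndufa4l2 (-0.21), and with array weights for Uqcrh (-0.11) and Cox7a2 (-0.18). Leaving out single arrays spanned 0 for Uqcrh (-0.74 to 0.85), Cox4i1 (-1.82 to 0.32), Cox7b (-1.33 to 0.045), Cox6b1 (-0.097 to 1.84), Atp5b (-0.39 to 0.020), Atp5g1 (-0.064 to 0.83), Cox6b2 (-0.91 to 0.12), Cox7a2 (-0.25 to 0.82) and Cox8a (-0.040 to 0.57). The cause was not tested.

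Same-numbered pools had deviations correlated at 0.131, 0.0513 and 0.226, and differently numbered ones at -0.211 to 0.133. No label says that a pool number marks a shared experiment, so the numbers were not taken as pairs. With the pool number as a replicate block, 0 respiratory genes were called and, of all genes, 14 lower and 2 higher, and no named gene changed its call.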

Other observations

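Probe sets that list several symbols entered no comparison. Cox7c, a common subunit of complex IV, shares its 3 probe sets with Gm12338. They differed between the tissues by 0.01 to 0.03, and the first read 9.62, 10.98 and 10.31 in lamina propria and 10.27, 10.46 and 10.09 in marrow. Ndufb4, an accessory subunit of complex I, shares both of its probe sets with Ndufb4b, and they differed by -0.58 and -0.28. The first read 5.16, 7.10 and 7.58 in lamina propria and 7.33, 7.88 and 6.38 in marrow. A probe set shared by Ndufs5 and Ndufs5-ps read 4.44, 9.55 and 8.24 in lamina propria and 9.19, 8.95 and 7.39 in marrow. The probe set of Ndufs5 alone read 5.35, 6.01 and 8.03 in lamina propria, so the pair of probe sets gave like values in pool 3 and different ones in pool 2.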
